A study of Homo sapiens with 21 samples.

Results

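The 59 genes described here encode RNA polymerase II, the Mediator complex and the factors that carry the polymerase through elongation and termination. They were taken by gene symbol alone, with no measured value, from the transcripts that the deposited tables list, and comprise 107 transcripts of 21537, in 59 genes of 11852. The series is poly-A RNA-seq of a cardiac differentiation of PGP1, an established human induced pluripotent stem cell (iPSC) line, with 21 libraries in 7 groups of 3. The wild-type groups follow the differentiation from iPSC through mesoderm, abbreviated M, and its cardiac form (CMes) to the progenitor of the cardiac lineage (CP) and the beating cardiomyocyte, here CM. The other groups are CMs of UBE2B-/-1 and UBE2B-/-2, lines from separate editing experiments that lack UBE2B, an E2 enzyme of histone H2B ubiquitination. CMs of all genotypes were taken after the onset of beating and were selected with lactate, and the UBE2B-/- cultures used were those that beat. Each line was grown from a clonal colony, and each replicate came from a plate started at another time, so replicates share 1 line.

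RNA polymerase II is a complex of POLR2 subunits, of which POLR2A and POLR2B form the catalytic core. Mediator relays the signal of transcription factors to the polymerase at promoters through head, middle and tail modules and a detachable kinase module. After initiation the polymerase pauses under NELF and DSIF until the kinase P-TEFb releases it, and FACT, TFIIS, Elongin and the super elongation complex then help it through nucleosomes and stalls. H2B ubiquitination, the mark that UBE2B helps to deposit, is known to follow transcribed gene bodies and to work together with FACT.

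Each deposited table averages the libraries it compares, so a value below is the geometric mean of the estimated counts over 6 libraries of adjacent stages (iPSC and M, M and CMes, CMes and CP, CP and CM) or over the 9 CM libraries of all genotypes. No value per library was used, and the depth of the libraries is unknown. Changes are differences between stages that are 2 steps apart, obtained from the means of adjacent tables, in which the libraries of the stage between cancel. They were centred on the median transcript that both tables list, so "higher" means higher relative to that median. A transcript can enter only if it is listed in both tables, and by the study's methods a table lists transcripts that changed at that step, which was not checked here because the columns of the authors' comparisons were not used. If so, entry selects for change and the p-values are smaller than those of an unselected set. The spread between replicates is given as the residual standard deviation of the fit, in log2 units. It includes the technical variance, the uncertainty of the quantification within a library. Standard errors of differences rest on the residual variances of both tables, which include the libraries of the stage between.

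The cardiac and pluripotency markers moved in the direction that the stage labels imply, and the mesoderm markers did so in part. From CMes to CM all 27 listed transcripts of the 6 cardiac markers rose, by 4.92 to 16.84 on the log2 scale. Over the same interval all 8 listed transcripts of the pluripotency markers POU5F1, SOX2 and DPPA4 fell by 6.01 or more on that scale. Of these, 2 transcripts of POU5F1 had equal values and are not separate measurements. Between M and CP the 6 transcripts of the atrial light chain MYL7 rose by 8.07 to 11.21. Of 5 mesoderm transcripts over that interval, 2 were lower at CP, both of TBXT, and 3, of MESP1 and EOMES, did not pass. Between iPSC and CMes the 3 TBXT transcripts tested were higher by 3.85 to 5.00. The 1 pluripotency transcript tested there, of DPPA4, differed by -1.65. From CMes to CM the 1 mesoderm transcript tested, of EOMES, differed by -7.97. Markers of other cell types moved over the same intervals. Between iPSC and CMes the 1 endoderm transcript tested, of FOXA2, was higher by 10.74. Between M and CP, 4 of 4 endoderm transcripts and 6 of 7 epithelial transcripts were higher, while between CMes and CM 2 of 3 endoderm and 2 of 4 epithelial transcripts were lower and 1 of 3 mesenchymal and smooth muscle transcripts, ACTA2, was higher. Their part in the results below was not tested. In bulk RNA, fewer cells of a type and less RNA per cell cannot be told apart. In the 9-library CM fit the cardiac markers TNNT2, ACTN2 and MYL7 were listed for both lines, and MYH6 for UBE2B-/-2. By the study's methods a listing marks a transcript that differed from wild type, so it does not show the level of a marker in UBE2B-/- CMs. The paper reports reduced sarcomere genes in these CMs, and TNNT2 protein in part of the beating UBE2B-/- cells. No pluripotency or mesoderm marker was listed in the CM fit, which does not mean that it was absent. The paper reports that most UBE2B-/- cells retained brachyury, the protein of TBXT, at the CM stage. The endoderm marker SOX17 was listed for UBE2B-/-1, and KDR, COL1A1 and COL1A2 were listed for UBE2B-/-2. The epithelial markers KRT8 and KRT18 were listed for both lines, and EPCAM for UBE2B-/-2.

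Of 77 genes in the role lists, 59 were listed in at least 1 table. Most were listed at the last wild-type step, and so were most transcripts of all genes, 12982 of 21537. The CP and CM table held 69 member transcripts of 44 genes among those 12982. Counts were 18 in 16 genes among 3315 for iPSC and M, and 22 in 15 genes among 6541 for M and CMes. For CMes and CP they were 37 in 26 genes among 7519. The tables of the CM fit held 12 and 11 member transcripts for UBE2B-/-1 and UBE2B-/-2, among 3088 and 3134. Not listed anywhere were the polymerase subunit POLR2K, the Mediator subunits MED13, MED16, MED17, MED19, MED20, MED22, MED26, MED27 and MED29, the pausing factors NELFE and SUPT4H1, the histone chaperone SUPT6H, ELL, ELL3, ELOB, ELOC and the kinase CDK12. The level of a transcript that is not listed is not known here.

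**Figure D1:**
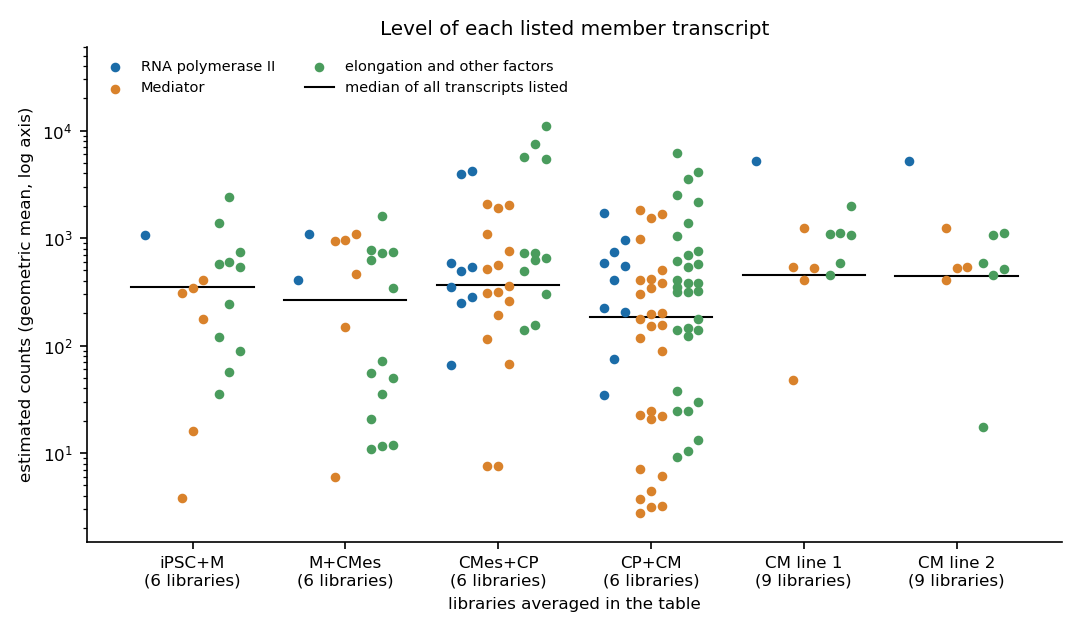
Estimated counts of each listed member transcript (log axis, geometric mean over the libraries of the table) for the 6 tables, coloured by RNA polymerase II, Mediator and the other factors, with the median of all listed transcripts as a black line. The CMes and CP table holds the transcript with the most counts, SUPT16H at 11032, and each table is scaled separately.

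FACT is the dimer of SUPT16H and SSRP1 that loosens and rebuilds nucleosomes in front of and behind the polymerase. Among the members listed over CMes and CP and over CP and CM, its transcripts had the most estimated counts. Its major transcripts were not listed in the other tables. Over the CMes and CP libraries the full-length SUPT16H transcript ENST00000216297.7 had a mean of 11032 estimated counts and SSRP1 ENST00000278412.7 had 7581. Per kilobase of transcript these are 2489 and 2678, so the subunits stood close to each other once length was taken into account. Over the CP and CM libraries they had 6200 and 4084 estimated counts, or 1399 and 1443 per kilobase. Both means were thus lower in the later table, and the residual SD of each transcript in each table lay between 0.101 and 0.172.

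Both FACT subunits fell between CMes and CM, and by similar amounts. SUPT16H changed by -1.22 ± 0.15 (log2, SE, n = 3 libraries per stage), which is 0.429 of the CMes level, with an adjusted p of 0.000419 by the limma-moderated test. SSRP1 changed by -1.34 ± 0.16, or 0.394 of the CMes level, with an adjusted p of 0.000379. Their 95% intervals, -1.58 to -0.87 and -1.72 to -0.96, overlap. An interval for the difference between them was not computed. Both were also lower without centring and under every other setting tried.

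The promoters of the FACT genes are shown because both transcripts were lower in CMs, and that of the polymerase subunit POLR2E because it was higher. The letters are RefSeq sequences on GRCh38.p14, 5′ to 3′ on the gene's strand and around its annotated start, and 47 of the 59 genes had an entry. Capitals mark matches on either strand to CCAAT, to the GC box GGGCGG, to the TATA box TATAAA and to the ETS core CGGAAG, where a GC box and an ETS core can share bases.
SUPT16H chr14:21383970-21384269, minus strand: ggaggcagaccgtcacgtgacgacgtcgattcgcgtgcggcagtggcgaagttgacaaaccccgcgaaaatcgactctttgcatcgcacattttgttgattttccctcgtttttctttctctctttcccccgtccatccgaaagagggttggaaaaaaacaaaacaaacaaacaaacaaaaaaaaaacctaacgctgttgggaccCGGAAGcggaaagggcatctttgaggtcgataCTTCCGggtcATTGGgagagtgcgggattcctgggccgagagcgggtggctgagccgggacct
SSRP1 chr11:57335843-57336142, minus strand: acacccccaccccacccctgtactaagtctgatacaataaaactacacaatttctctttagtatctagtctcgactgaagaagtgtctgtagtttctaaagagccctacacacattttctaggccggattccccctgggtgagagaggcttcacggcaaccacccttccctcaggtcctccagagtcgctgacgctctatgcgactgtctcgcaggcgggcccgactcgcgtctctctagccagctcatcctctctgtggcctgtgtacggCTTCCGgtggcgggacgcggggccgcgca
POLR2E chr19:1095326-1095625, minus strand: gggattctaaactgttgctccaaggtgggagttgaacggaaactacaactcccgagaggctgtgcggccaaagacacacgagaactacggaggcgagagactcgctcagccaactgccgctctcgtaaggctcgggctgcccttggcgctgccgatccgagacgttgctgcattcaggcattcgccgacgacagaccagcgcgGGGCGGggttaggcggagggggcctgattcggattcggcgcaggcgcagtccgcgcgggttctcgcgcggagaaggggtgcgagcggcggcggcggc

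Of these motifs the SUPT16H promoter held CCAAT 1 time and CGGAAG 2 times, the SSRP1 promoter held CGGAAG 1 time and the POLR2E promoter held GGGCGG 1 time. Over 35116 promoters of the same length, CCAAT was found in 34.6%, GGGCGG in 45%, CGGAAG in 19.5% and TATAAA in 11.5%. No TATAAA was found in these 3 windows. A match describes letters only and is no evidence of binding.

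SUPT16H also has a minor transcript, ENST00000557652.1, which spans chr14:21369820-21383995 (GRCh38, GENCODE 44), has 6 exons and is annotated as a target of nonsense-mediated decay (NMD). It had a mean of 35.8 estimated counts over the iPSC and M libraries and of 55.2 over the M and CMes libraries. It was higher at CMes than at iPSC by 1.09 ± 0.29 (log2, SE, n = 3 per stage), with an adjusted p of 0.0248. Its technical SD, the uncertainty of the quantification within a library, was 0.797 log2 units over iPSC and M against a residual SD of 0.538, and with the technical variance in place of the smaller residual one the adjusted p was 0.0889. The NMD transcript and the full-length one were measured over different intervals, and ENST00000555943.1 was listed at 35.2 estimated counts over M and CMes only.

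Stages 2 steps apart could be compared over 3 intervals, and 36 differences of 31 member transcripts from 22 genes entered them. Of these 9 were higher, 9 were lower and 18 did not pass an adjusted p of 0.05. Over all shared transcripts 18.2% to 43.6% were higher and 18.6% to 37% were lower, depending on the interval. The member counts were not tested against these shares and are not read as particular to the members. The other 37 genes were listed at no adjacent pair of tables with the same transcript, so only their levels are known.

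**Figure D2:**
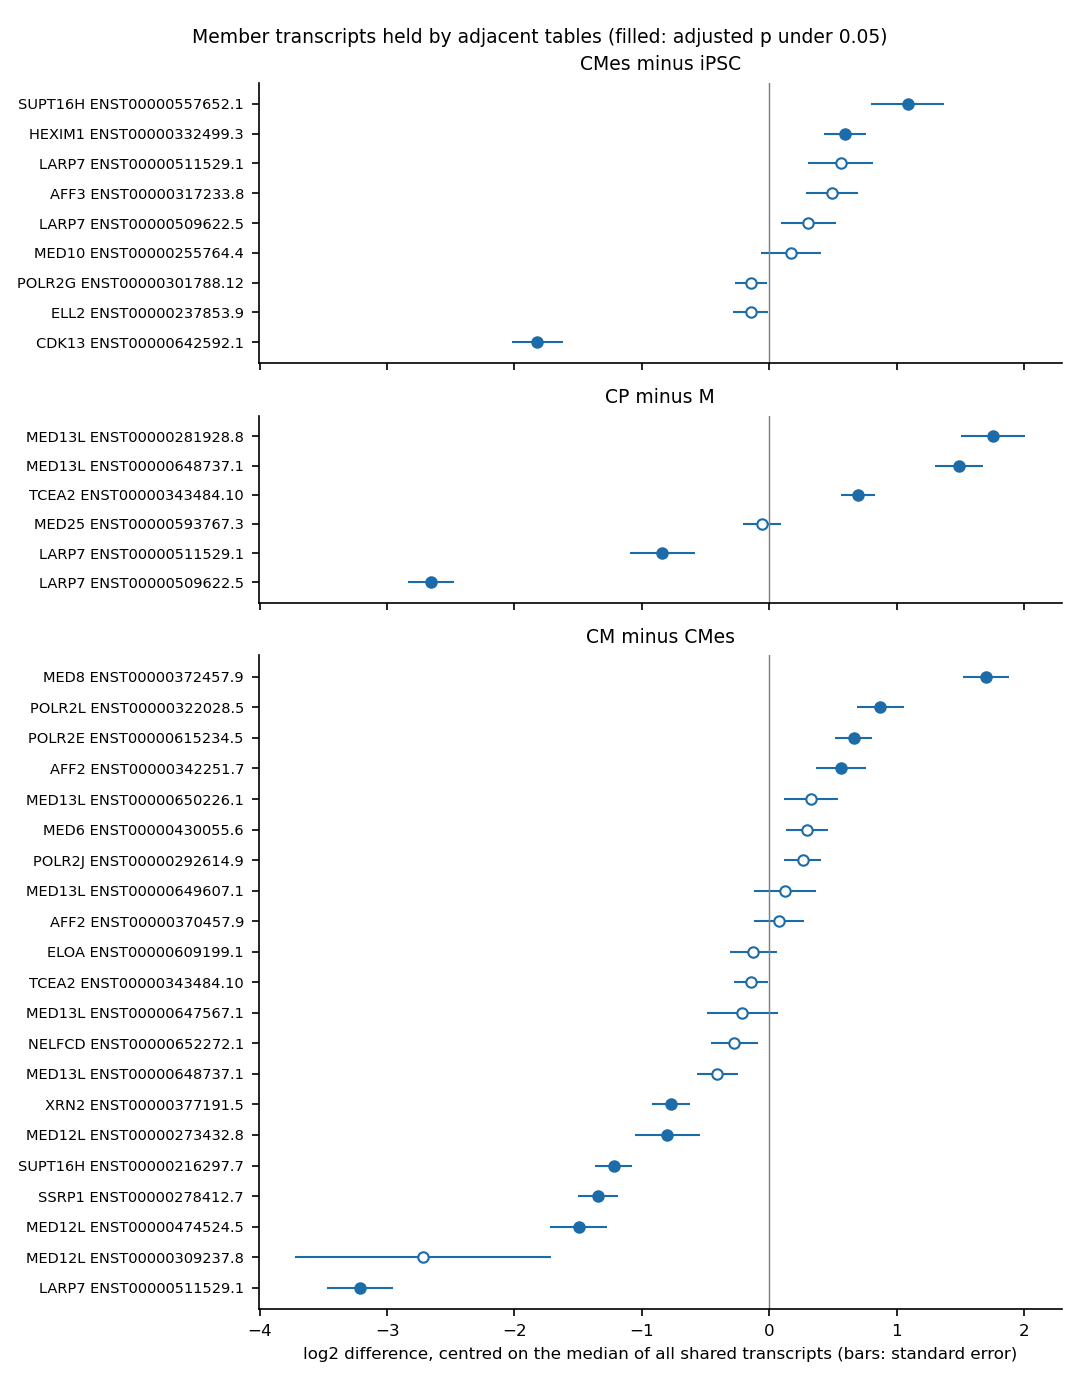
Log2 difference of each member transcript held by adjacent tables, with standard error (n = 3 libraries per stage), for CMes minus iPSC, CP minus M and CM minus CMes. Filled points have an adjusted p under 0.05, and the lowest value is LARP7 ENST00000511529.1 at -3.21 and the highest MED13L ENST00000281928.8 at 1.76.

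Of the RNA polymerase II genes, 12 of 13 were listed. Between CMes and CM the shared subunits POLR2E and POLR2L, which are also part of RNA polymerases I and III, rose. POLR2L ENST00000322028.5 had a mean of 350.2 estimated counts over CMes and CP and of 406 over CP and CM, and its difference was 0.87 ± 0.19 (log2, SE), or 1.83-fold, with an adjusted p of 0.00590. POLR2E ENST00000615234.5 had means of 540.3 and 583, and its difference was 0.66 ± 0.14, or 1.58-fold, with an adjusted p of 0.00650. Without centring both stayed positive but missed the threshold, POLR2L at 0.43 (adjusted p = 0.0794) and POLR2E at 0.22 (adjusted p = 0.215). POLR2J, a subunit with near-identical paralogs that may share its reads, had means of 583 and 547 and a difference of 0.26 with a 95% interval of -0.09 to 0.62. POLR2G, which sits in the stalk of the enzyme, had 1080 estimated counts over iPSC and M and 1083 over M and CMes, and its difference between iPSC and CMes was -0.14 with an interval of -0.44 to 0.15.

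No transcript of the other polymerase subunits was held by adjacent wild-type tables. POLR2A ENST00000617998.4, of the gene for the largest subunit, had 3952 estimated counts over CMes and CP and 5168 over the 9 CM libraries, on separately scaled tables. This transcript is annotated without a defined coding sequence. POLR2B, its partner in the catalytic centre, had 4228 estimated counts over CMes and CP with a residual SD of 0.0484, the lowest of any member in that table, and its retained-intron transcript ENST00000478188.5 had 75.8 over CP and CM. POLR2C had 1732 and POLR2M, a subunit that restrains the enzyme, had 964 over CP and CM. POLR2D was listed as ENST00000409955.1 with 495 over CMes and CP and as ENST00000272645.9 with 743 over CP and CM. POLR2H had 412 over M and CMes and 207 over CP and CM. Over CMes and CP, POLR2F had 249 and POLR2I had 281, with a retained-intron POLR2I transcript at 66.1. NMD transcripts of POLR2G and POLR2L had 34.7 and 225 over CP and CM.

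Per kilobase, the polymerase subunits spanned a wide range. POLR2G had 1365 estimated counts per kilobase over iPSC and M, where no other subunit was listed. Over M and CMes it had 1369, against 521 for POLR2H, the only other subunit listed. Over CMes and CP, POLR2B stood at 1117 per kilobase, POLR2I at 634, POLR2J at 622, POLR2A at 585, POLR2F at 426, POLR2L at 399.7, POLR2D at 281 and POLR2E at 189. Over CP and CM, POLR2C stood at 982 per kilobase, ahead of POLR2J at 584, POLR2L at 464, POLR2H at 262, POLR2M at 234, POLR2E at 204 and POLR2D at 147. These values use annotated lengths and not effective lengths, and they cannot be compared across tables.

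In the Mediator head, the subunit MED8 showed the steepest rise of any member between CMes and CM. Its transcript ENST00000372457.9 had 262 estimated counts over CMes and CP and 405 over CP and CM. The difference was 1.70 ± 0.18 (log2, SE, n = 3 per stage), or 3.25-fold, with an adjusted p of 0.000240 and an interval of 1.27 to 2.13. MED6, also of the head, had 359 and 341 estimated counts and a difference of 0.30 with an interval of -0.10 to 0.69. The remaining head subunits were listed at 1 step each, and MED28 was the highest of them with 1679 estimated counts over CP and CM. The rows for MED18 were 2 transcripts with equal values of 7.56 estimated counts. The same held for 2 pairs of TCEA3 transcripts, and in each pair 1 transcript had no match in GENCODE 44.

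Of the middle and tail subunits, a difference could be formed for MED10 and MED25, and neither passed the threshold. MED10, of the middle module, had 410 and 459 estimated counts over the early tables and a difference between iPSC and CMes of 0.17 with an interval of -0.40 to 0.74. MED25, a tail-associated subunit contacted by activators, had 970 over M and CMes and 1085 over CMes and CP, and a difference between M and CP of -0.06 with an interval of -0.42 to 0.31. MED14, the backbone that joins the modules, had 2019 estimated counts over CMes and CP. MED23 and the minor MED24 transcript ENST00000394127.6 had residual SDs of 2.76 to 2.90 over CP and CM, at 20.8 to 24.9 estimated counts. Their residual variances of 3.67 to 4.05 (squared natural log) held technical variances of 2.02 to 2.54. The wide spread is therefore not that of the replicates alone. The major MED24 transcript ENST00000394128.7, at 992 estimated counts, had a residual SD of 0.215 in the same fit.

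The kinase module, in which MED12 or MED12L and MED13 or MED13L hold CDK8 or CDK19, was listed for MED12, MED12L and MED13L. MED12L, with 4 listed transcripts, had 2 that fell between CMes and CM. The long transcript ENST00000474524.5 went from 757 estimated counts over CMes and CP to 387 over CP and CM, a difference of -1.50 ± 0.22 (log2, SE) with an adjusted p of 0.00112. ENST00000273432.8 went from 313 to 203, a difference of -0.80 ± 0.26 with an adjusted p of 0.0306, which rose to 0.0650 with the ordinary variance and to 0.0689 with the larger residual variance. ENST00000309237.8 had a difference of -2.72 with an adjusted p of 0.0520 and a residual SD of 2.10 over CP and CM, and without centring of -3.16 with an adjusted p of 0.0295.

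Both MED13L transcripts that could be compared between M and CP rose. The full-length coding transcript ENST00000281928.8 (chr12:115958576-116277693, minus strand, 31 exons) went from 148 estimated counts over M and CMes to 311 over CMes and CP, a difference of 1.76 ± 0.25 with an adjusted p of 0.000632. The retained-intron transcript ENST00000648737.1 (chr12:115959364-116096911, 28 exons) went from 1091 to 2084, a difference of 1.49 ± 0.19 with an adjusted p of 0.000301. They were 3.38-fold and 2.81-fold higher at CP. Over the interval from CMes to CM, none of the 4 MED13L transcripts passed the test, and their differences ran from -0.41 for ENST00000648737.1 to 0.33 for the coding ENST00000650226.1. Without centring ENST00000648737.1 stood at -0.85 with an adjusted p of 0.00352, and ENST00000649607.1 and ENST00000650226.1 turned from positive to negative. MED13L had 10 listed transcripts, more than any other member, and 5 of these are retained-intron transcripts with at most 7.09 estimated counts.

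LARP7, which holds the 7SK RNA that keeps P-TEFb inactive, had the largest decreases that passed the test among the members. Transcript ENST00000509622.5, annotated as an NMD target, had 1371 estimated counts over iPSC and M, 1609 over M and CMes and 730 over CMes and CP. It did not pass between iPSC and CMes, at 0.31 ± 0.22 (log2, SE, adjusted p = 0.349), and it fell by 2.66 ± 0.18 between M and CP with an adjusted p of 2.41e-05. Over CMes and CP the technical SD of this transcript was 1.24 log2 units against a residual SD of 0.126, so the split of reads among the LARP7 transcripts within a library was uncertain. With that technical variance the standard error was 0.60 and the adjusted p was 0.00635.

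The coding transcript ENST00000511529.1 had 572, 732, 624 and 175 estimated counts over the wild-type tables in stage order. It did not pass between iPSC and CMes, at 0.56 ± 0.26 with an adjusted p of 0.147. It fell by 0.84 ± 0.26 between M and CP, with an adjusted p of 0.0209 that became 0.148 without centring and 0.0559 with the ordinary variance. From CMes to CM it fell by 3.21 ± 0.26, to 0.108 of the CMes level, with an adjusted p of 8.75e-05. Another coding transcript, ENST00000344442.10, was listed only in the later tables, with 1055 estimated counts over CP and CM and 1060 over the 9 CM libraries. The decrease of a listed LARP7 transcript need not be a decrease of the gene, whose summed level in each stage is not known here.

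**Figure D3:**
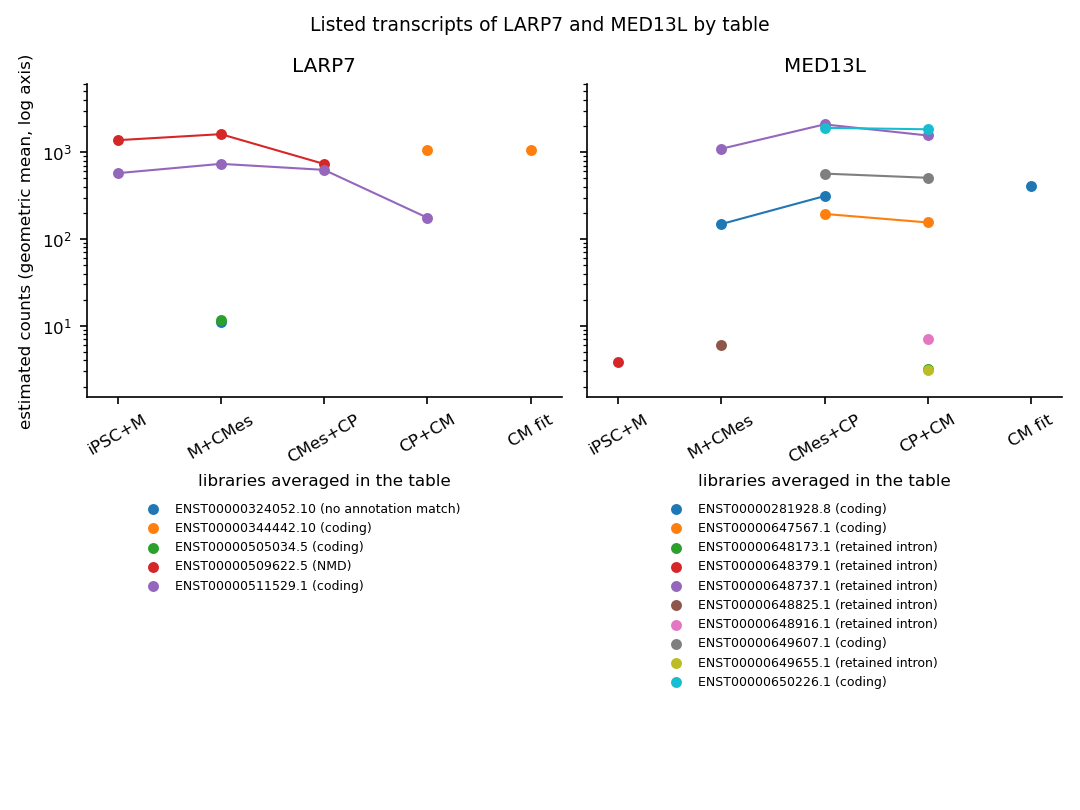
Estimated counts (log axis, geometric mean over the libraries of the table) of the listed transcripts of LARP7 and MED13L, with lines joining a transcript across adjacent wild-type tables. LARP7 ENST00000511529.1 falls from 624 over CMes and CP to 175 over CP and CM, while LARP7 ENST00000344442.10 stands at 1055 over CP and CM and 1060 over the 9 CM libraries.

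Among the other P-TEFb genes, HEXIM1, the protein that inhibits the kinase on 7SK, rose between iPSC and CMes. It had 600.4 estimated counts over iPSC and M and 778 over M and CMes, and the difference was 0.59 ± 0.17 (log2, SE), or 1.51-fold, with an adjusted p of 0.0315, which was 0.0576 with the ordinary variance. The kinase CDK9 was listed only in the CM tables, at 1096 estimated counts for ENST00000373264.4 in that of UBE2B-/-1 and 17.5 for ENST00000421939.5 in that of UBE2B-/-2. Of its cyclins, an NMD transcript of CCNT1 had 121 over iPSC and M and CCNT2 had 627 over M and CMes. Further LARP7 transcripts, ENST00000324052.10 and ENST00000505034.5, had 11.0 and 11.6 over M and CMes.

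Among the pausing factors, the DSIF subunit SUPT5H had 2403 estimated counts over iPSC and M and 2503 over CP and CM, in tables that share no library. Of the NELF complex, NELFB had 754 over CP and CM and 1123 over the 9 CM libraries. NELFCD had 732 over CMes and CP and 571 over CP and CM. A retained-intron transcript of NELFA had 10.5 over CP and CM with a residual SD of 2.09. Its residual variance was nearly all technical, 2.0885 of 2.0894 (squared natural log). NELFCD was the NELF gene for which a difference could be formed. It was -0.28 between CMes and CM with an interval of -0.72 to 0.17 and did not pass. Without centring it stood at -0.72 with an adjusted p of 0.0124.

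Of the factors that act during productive elongation, TCEA2, a TFIIS form that rescues backtracked polymerase, rose between M and CP. It had 344 estimated counts over M and CMes and 499 over CMes and CP, and a difference of 0.70 ± 0.13 with an adjusted p of 0.00268. From CMes to CM it differed by -0.14 with an interval of -0.47 to 0.19, and without centring by -0.58 with an adjusted p of 0.00809. AFF2, a scaffold related to those of the super elongation complex, had 1 of 2 transcripts past the threshold between CMes and CM, ENST00000342251.7 at 0.56 ± 0.20 with an adjusted p of 0.0430, against 0.07 for ENST00000370457.9. Its call was lost without centring, at 0.12 with an adjusted p of 0.601, and with the ordinary or the larger variance, at 0.0612 and 0.0743. AFF4, a core scaffold of that complex, had 5733 estimated counts over CMes and CP. ELL2 had 737 and 738 over the early tables with a difference of -0.15 and an interval of -0.47 to 0.17. AFF3 had 57.0 and 71.4 with a difference of 0.49 and an adjusted p of 0.113, and without centring of 0.65 with an adjusted p of 0.0475. The Elongin subunit ELOA, in a retained-intron transcript, had 658 and 540.4 estimated counts and a difference of -0.13 between CMes and CM, which was -0.57 with an adjusted p of 0.0312 without centring.

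The CTD kinase CDK13, which phosphorylates the tail of POLR2A during elongation, had 1 transcript that fell between iPSC and CMes. This short coding transcript, ENST00000642592.1 (chr7:40045930-40067973, 5 exons), had 89.9 estimated counts over iPSC and M and 50.2 over M and CMes, and its difference was -1.82 ± 0.20 (log2, SE), or 0.283 of the iPSC level, with an adjusted p of 0.000471. The longer CDK13 transcripts were listed only later, at 323 over CP and CM and 591 over the 9 CM libraries. XRN2, the exonuclease that ends transcription after cleavage of the RNA, fell between CMes and CM. It had 5448 estimated counts over CMes and CP and 3575 over CP and CM, and a difference of -0.77 ± 0.15, or 0.585 of the CMes level, with an adjusted p of 0.00357.

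Counted by interval, 2 of 9 member transcripts were higher and 1 was lower at CMes than at iPSC, while 18.2% of all 1551 transcripts shared by those tables were higher and 18.6% lower. Between M and CP, 3 of 6 were higher and 2 lower, against 43.6% and 37% of 2427. Between CMes and CM, 4 of 21 were higher and 6 lower, against 31.7% and 35.1% of 3743, and without centring 1 was higher and 11 were lower. Over all 3743 transcripts 1187 were higher and 1314 lower, or 981 and 1658 without centring. The median over all shared transcripts before centring was 0.15, 0.38 and -0.44 for the 3 intervals. The median difference of the members was 0.31, 0.32 and -0.14 for the 3 intervals, where the median over all shared transcripts is 0 by the centring. The median absolute difference was 0.49 against 0.41 for iPSC to CMes, 1.16 against 1.52 for M to CP and 0.56 against 1.30 for CMes to CM. The members' median absolute difference was thus smaller than that of all transcripts for M to CP and CMes to CM, and larger for iPSC to CMes. None of these counts and medians was tested against those of all transcripts, so they are not read as particular to the members.

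Genes of the pathway outside these complexes were listed for 25 of 30, and a difference could be formed for 6 of their transcripts. RPRD1A, which binds the polymerase tail, fell by 2.23 ± 0.17 between CMes and CM with an adjusted p of 7.34e-05. The 7SK capping enzyme MEPCE at 0.14 and the tail phosphatase SSU72 at 0.03 did not pass over the same interval. Between iPSC and CMes, the kinase module cyclin CCNC stood at 0.43 and the TFIIH subunit GTF2H3 at 0.11, and neither passed.

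The spread between replicates of the members was near that of all listed transcripts at early stages and smaller in the later tables. The median residual SD of the members was 0.234 against 0.223 over iPSC and M, 0.255 against 0.261 over M and CMes, 0.182 against 0.221 over CMes and CP and 0.247 against 0.338 over CP and CM. In the tables of the 9 CM libraries it was 0.259 against 0.363 for UBE2B-/-1 and 0.271 against 0.389 for UBE2B-/-2, and 1 of 12 and 0 of 11 members lay above the median of all transcripts. No test was made of these differences. The members also had higher median estimated counts in the later tables, 514 against 365 over CMes and CP and 302 against 184 over CP and CM. In the CM fit these medians were 826 against 457 for UBE2B-/-1 and 542 against 440 for UBE2B-/-2. They were 378 against 266 over M and CMes, and 326 against 354 over iPSC and M. Whether the level accounts for the smaller spread was not tested. The widest member was MED24 ENST00000394127.6 at 2.90 over CP and CM and 2.43 over the 9 CM libraries, where it had 22.2 and 48.3 estimated counts. Technical variance was 2.54 of its residual variance of 4.05 over CP and CM (squared natural log). Over the 9 CM libraries it was 1.97 of 2.84. TCEA2 had the lowest SD of any member, 0.0469 over CP and CM.

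**Figure D4:**
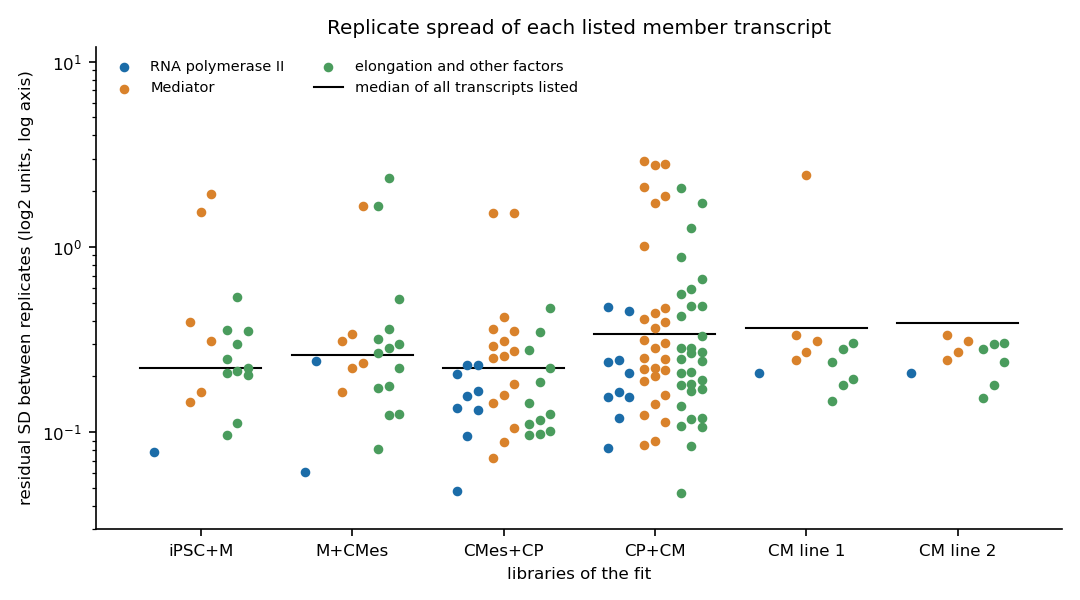
Residual SD between replicates (log2 units, log axis) of each listed member transcript in the 6 fits, coloured by complex, with the median of all listed transcripts as a black line. In the CM fits 1 of 12 and 0 of 11 member transcripts lie above the line, and the highest point, at 2.90, is a MED24 transcript over CP and CM.

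For the UBE2B-/- comparison the tables of both lines hold 1 mean and 1 variance per transcript over all 9 CM libraries, and these were equal for each of the 1992 transcripts listed for both. A difference between wild type and UBE2B-/- can therefore not be formed from means, and UBE2B itself could not be checked by sample. In that fit 14 member transcripts were listed for at least 1 line and 9 for both, namely those of CDK13, LARP7, MED13L, MED15, MED21, MED25, NELFB, POLR2A and SUPT20H. The remaining 5 were AFF1, MED24 and CDK9 ENST00000373264.4 for UBE2B-/-1, and TCEA2 and CDK9 ENST00000421939.5 for UBE2B-/-2. POLR2A led with 5168 estimated counts (765 per kilobase), followed per kilobase by LARP7 at 503 and NELFB at 442. AFF1, a scaffold of the super elongation complex, had 1980 estimated counts and MED15, which contacts activators from the tail, had 1250.

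By annotated class, of the 107 member transcripts, 76 or 71.0% were annotated as protein coding, 11 or 10.3% as retained intron and 10 or 9.35% as NMD targets, while over all listed transcripts the shares were 75.7%, 6.86% and 5.2%. These shares were not tested against each other. The estimate for each transcript depends on how reads that fit several transcripts were shared out. The SAGA subunit SUPT20H illustrates the mixture: coding ENST00000475892.5 had 534 estimated counts over iPSC and M, 380 over CP and CM and 454 over the 9 CM libraries, while its NMD transcripts ENST00000490716.5 and ENST00000495071.6 had 20.9 and 11.8 over M and CMes with residual SDs of 1.67 and 2.34. The lowest members had 2.77 estimated counts for MED12L ENST00000469768.1 and 3.12 for MED13L ENST00000649655.1 over CP and CM, and values of this size are close to the pseudocount of 0.5.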

How the data were processed

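Libraries were grouped by their labels into 7 groups of 3. The authors trimmed reads, quantified transcripts with Kallisto on hg38 and compared groups in Sleuth. They deposited 6 tables, and per the file headers each row holds a mean on the natural log scale of estimated counts plus 0.5, over the libraries of the fit, and variance scores (technical, raw and smoothed biological) on the squared natural log scale. The columns of the authors' own comparisons (p-value, q-value, effect and standard error) were not used. The tables have 0 columns with values of single libraries, so depth is unknown and the precision of a value rests on the residual variance.

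A stage difference is 2 times the difference between the means of adjacent tables, centred on the median over all shared transcripts. Its variance is the technical plus raw biological variance on 4 degrees of freedom, averaged over both tables and moderated with squeezeVar of limma 3.58.1 (R 4.3.3). The variance of a table pools its stages, so the stage between weighs most although its libraries cancel from the difference. The standard error can be too small where a compared stage spreads more than the stage between. P-values are two-sided and adjusted by Benjamini-Hochberg over all shared transcripts of a comparison. The procedure was tested on simulated data in which a minority of transcripts changed and none was selected for change. That setting differs from these tables, so the simulation does not check the centring or the p-values under such selection. Transcripts were matched to GENCODE 44 (GRCh38) by identifier without version. Named genes were every member transcript with a difference, at most the 10 largest moderated statistics in each comparison, the 5 highest and 3 lowest levels of a table and every polymerase, P-TEFb, NELF, DSIF and FACT gene listed. Others named were chosen after their values were seen. The members, lists and tests were chosen with earlier results of these data known. The same libraries enter several tables, so the comparisons are not independent. Alternatives were no centring, a trimmed mean, the ordinary or larger variance, a minimum of 5 estimated counts and, for levels and spread, summed transcripts, length scaling and the smoothed variance. Some items are not reported here.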

Additional observations from a re-analysis of the deposited data

How the results depend on the processing

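The number of member transcripts higher at CMes than at iPSC, 2, became 3 without centring, where AFF3 passed, 0 with the ordinary variance and 1 with the larger residual variance or, in an alternative chosen after seeing the data, with the technical variance where it was the larger. The number lower at CP than at M, 2, became 1 without centring or with the ordinary variance. Between CMes and CM, without centring, 1 rather than 4 were higher and 11 rather than 6 lower, since the offset removed by centring was -0.44, against 0.15 for iPSC to CMes and 0.38 for M to CP (log2). Without centring 8 differences below the threshold changed sign: to 0.0055 for ELL2, 0.0086 for POLR2G, 0.3223 for MED25, -0.368 for AFF2 ENST00000370457.9, -0.3205 for MED13L ENST00000649607.1, -0.1143 for MED13L ENST00000650226.1, -0.1803 for POLR2J and -0.1463 for MED6. Centring on the trimmed mean changed no call among the 36 differences. With at least 5 estimated counts, MED12L ENST00000309237.8 passed, with an adjusted p of 0.0496. The shares of members above the median in level and in spread moved within their 95% binomial intervals in all 6 tables. Those intervals treat members as independent and are wide, so staying inside them does not show that a share was stable. For the spread in the UBE2B-/-2 table the share went from 0% to 18.2% with the smoothed variance, inside an interval of 0 to 28.5%. No paired analysis was possible because the tables hold no value per replicate, and for the same reason no replicate could be left out. The depth of the libraries is unknown.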
